A study of Mus musculus with 10 samples.

Results

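Of 8 replicates of tumour-infiltrating CD4+CD25- T cells, 4 held over 600 normalized counts of Col4a1, a basement membrane collagen gene, and the other 4 did not. Each of the 4 genotypes gave 1 replicate to each side, so the Col4a1-high class had 1 IL4-/-KO, 1 KO, 1 IL4-/- and 1 WT replicate, and so did the Col4a1-low class. In libraries this was 5 of 10 on each side, because each KO replicate had 2 libraries, which were averaged. The classes were chosen on Col4a1 in these same libraries, so every difference between them is a description and carries no test. The value just inside the limit was 682, in the Col4a1-high IL4-/-KO replicate, and the value just outside was 168, in the Col4a1-low WT replicate. Values of 4 replicates are listed below in the order IL4-/-KO, KO, IL4-/- and WT. Col4a1 had 682, 3997, 2867 and 3384 normalized counts in the Col4a1-high replicates, against 0, 0.735, 23.5 and 168 in the Col4a1-low replicates. Its mean log2 difference over the 4 genotype pairs was 7.95 ± 2.99 (SD, n = 4 pairs), on the log2(normalized count + 1) scale used for every log2 value here. Both libraries of a KO replicate fell on the same side, with 3346 and 4648 in the Col4a1-high replicate and 1.47 and 0 in the Col4a1-low replicate.

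The cells were sorted from digested mammary tumours of C57BL/6 mice at 23 weeks of age, and RNA was sequenced in bulk after SMART-Seq v4 amplification. All mice carried PyMT, a viral oncogene that drives mammary tumours, and loxP-flanked Tgfbr2 (Tgfbr2fl/fl). IL4-/-KO mice lacked Il4 and carried ThPOKCre, a recombinase transgene active in the CD4 T cell lineage that deletes Tgfbr2, which encodes a TGF-beta receptor. KO mice carried ThPOKCre with Il4 intact, IL4-/- mice lacked Il4 without Cre, and WT mice carried the floxed gene alone. The 2 libraries of a KO replicate came from 1 RNA. No label ties a replicate to a mouse of its own. The p-values given here therefore measure just the scatter among these 8 replicates, part or all of which may be technical.

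The extracellular matrix is a mesh of collagens, laminins and glycoproteins. Its basement membrane sheet lies under epithelia and around vessels, and its interstitial part is made mainly by fibroblasts. Collagen IV is built of chains such as those of Col4a1 and Col4a2, which lie head to head and share 1 bidirectional promoter. Sorted T cells make little of this matrix, and tumour epithelium, fibroblasts and vessel cells are its usual sources in a mammary tumour.

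The promoter windows of Col4a1 and Col4a2 are shown because Col4a1 defined the classes and Col4a2, its neighbour, was the gene most like it. They run from 250 bases before to 50 bases after the start of each gene and come from RefSeq on GRCm38.p6, with Col4a1 on the minus strand at chr8:11312777-11313076 and Col4a2 on the plus strand at chr8:11312555-11312854. Capitals mark the 78 bases that both windows hold, which are reverse complements of each other.
Col4a1: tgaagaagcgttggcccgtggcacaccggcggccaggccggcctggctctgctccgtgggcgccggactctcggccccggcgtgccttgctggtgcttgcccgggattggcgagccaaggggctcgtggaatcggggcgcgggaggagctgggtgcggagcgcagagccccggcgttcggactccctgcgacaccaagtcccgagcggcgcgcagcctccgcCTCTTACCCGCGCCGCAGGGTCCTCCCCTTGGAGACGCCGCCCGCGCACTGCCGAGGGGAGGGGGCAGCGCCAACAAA
Col4a2: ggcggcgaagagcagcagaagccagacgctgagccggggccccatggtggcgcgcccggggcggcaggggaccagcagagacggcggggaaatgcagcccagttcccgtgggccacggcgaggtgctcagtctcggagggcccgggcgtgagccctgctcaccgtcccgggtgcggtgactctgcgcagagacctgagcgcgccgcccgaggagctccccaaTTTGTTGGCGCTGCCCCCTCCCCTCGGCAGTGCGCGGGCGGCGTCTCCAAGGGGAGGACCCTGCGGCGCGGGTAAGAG
The start sites lay 21 bases apart. GC made up 74% of the Col4a1 window and 73.7% of the Col4a2 window, above 94.9% of the 32851 promoter windows of that table, whose median was 52.7%. The motif CCAAT, searched on both strands, was found once in each window, as printed for Col4a2 and on the strand opposite to the printed one for Col4a1, and 37.4% of all windows held it. The motif GGGCGG was found once opposite to the printed strand of the Col4a1 window, and in the Col4a2 window 2 times as printed and once on the opposite strand, while 35.7% of all windows held it. These matches describe letters in the windows.

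Depth was similar between the classes within a genotype, but it differed between genotypes along with Il4 status. WT and first KO libraries held 17121030 to 18479090 recovered reads. IL4-/- and IL4-/-KO libraries held 28552482 to 33802781, and the repeat KO libraries 28003231 and 29715400. Recovered reads per library ran from 17121030 to 33802781 in the Col4a1-high class and from 17181221 to 31996804 in the Col4a1-low class. Genes detected ran from 12459 to 15899 in the Col4a1-high class and from 12891 to 14394 in the Col4a1-low class. A value of 0 allowed up to 3 reads, worth 1.93 to 4.41 normalized counts over all libraries, a limit that covers counting error only. The targeted genes did not check the genotype labels, since the table gives 1 value per gene and not per exon. Tgfbr2 had 8205, 7623, 12544 and 7876 normalized counts in the Col4a1-high replicates, against 7762, 6730.1, 13816 and 7894 in the Col4a1-low replicates, so the replicates with ThPOKCre lay within the range of 6730.1 to 8205 normalized counts, against 7876 to 13816 in IL4-/- and WT. Il4 had 39.7, 379.6, 75.4 and 107 normalized counts in the Col4a1-high replicates, against 98.7, 389, 97.2 and 276 in the Col4a1-low replicates. Reads counted to it were present in all replicates labelled Il4-deficient, at 39.7 to 98.7 normalized counts, below the 107 to 389 of KO and WT.

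Of 14473 genes tested, 2079 (14.4%) were higher in the Col4a1-high replicate of all 4 pairs and 2233 (15.4%) were lower in all 4. A difference of at least 2-fold in each pair was lopsided, with 581 genes higher (4.01%) and 34 lower (0.235%). The classes did not overlap, with every replicate of one class above every replicate of the other, for 857 genes on the higher side (5.92%) and 303 on the lower side (2.09%). Restricted to the 9966 better expressed genes, whose mean log2 value exceeded 7, 1330 (13.3%) were higher and 1972 (19.8%) lower in all 4 pairs. At least 2-fold in each pair, 227 were higher (2.28%) and 8 lower (0.0803%), and 506 (5.08%) were apart on the higher and 260 (2.61%) on the lower side. The 581 genes were mostly low in the Col4a1-low class, with a median class mean of 299.7 normalized counts in the Col4a1-high class and 37.6 in the Col4a1-low class. In 30 of them all 5 Col4a1-low libraries were at 0, and in 329 at least 1 was. Single pairs differed far more widely than the 4 agreed. Genes at least 2-fold higher and lower in 1 pair numbered 2104 and 1813 in IL4-/-KO, 2576 and 2705 in KO, 3368 and 1056 in IL4-/-, and 3755 and 2618 in WT. Across the 14473 genes, which are not independent replicates, the differences of any 2 pairs had Pearson correlations of 0.19 to 0.36 and Spearman correlations of 0.20 to 0.41.

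Basement membrane genes were higher in the Col4a1-high class. Of 13 listed genes, 12 were tested, 7 were higher in all 4 pairs (14.4% of all genes were) and 0 were lower in all 4. The classes did not overlap for 4, all on the higher side (5.92% of all genes were apart on that side). The list median was 2.86, against 0.01 for all genes tested. Without Col4a1 itself, 6 of 11 tested were higher in all 4 pairs, 3 were apart and the median was 2.82. Since Col4a1 of these libraries chose the classes, nothing is read from the count. In bulk RNA, fewer cells of a type and less RNA per cell cannot be told apart. Col4a2, the partner chain (mm10, chromosome 8, 11312805 to 11449287), had 255, 1495, 935 and 715 normalized counts in the Col4a1-high replicates, against 0, 0, 0.810 and 99.0 in the Col4a1-low replicates. Its mean log2 difference was 7.60 ± 3.34 (SD, n = 4 pairs), and the Col4a1-low WT replicate held most of what the low class had. The Col4a1 locus (chromosome 8, 11198423 to 11312826) overlaps that of Col4a2 at the start, and whether counting used strand is not given in the sources used here, so reads in that short overlap cannot be told apart. Lama4, which encodes a laminin chain of vessel and muscle basement membranes, had 401, 191, 548 and 469 normalized counts in the Col4a1-high replicates, against 2.23, 115, 0 and 39.6 in the Col4a1-low replicates. Agrn, which encodes the heparan sulfate proteoglycan agrin, had 461, 569, 1431 and 2049.7 normalized counts in the Col4a1-high replicates, against 249, 30.5, 168 and 231 in the Col4a1-low replicates. In both genes the lowest Col4a1-high replicate lay above the highest Col4a1-low one. Lama5, a laminin chain gene of epithelial basement membranes, had 81.6, 1536, 392 and 942 normalized counts in the Col4a1-high replicates, against 49.7, 69.3, 66.4 and 100.3 in the Col4a1-low replicates, so the IL4-/-KO replicate of the high class lay below the WT replicate of the low class. Lamc1, the common laminin gamma chain gene, was higher in each pair by little, at 0.35 ± 0.23. Nid2, encoding the linker protein nidogen-2, differed without one direction, at 2.89 ± 4.05, and Hspg2, encoding perlecan, was at most 11.6 in any replicate and was not tested.

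Interstitial matrix genes were higher too, while the fibrillar collagens that mark fibroblasts stayed low in both classes. Of 22 listed genes, 19 were tested, and 11 were higher in all 4 pairs (14.4% of all genes were) and 0 lower in all 4. In each pair 10 were at least 2-fold higher (4.01% of all genes were). The median was 3.09, also with the 2 genes that were at 0 in all Col4a1-low libraries set at their bound. Fbln2, encoding fibulin-2, a basement membrane and elastic fibre glycoprotein, had 1664, 3872, 1778 and 2596 normalized counts in the Col4a1-high replicates, against 0, 0.849, 95.6 and 450.2 in the Col4a1-low replicates (7.12 ± 4.39). Eln, encoding elastin, had 820.3, 548, 874 and 217 normalized counts in the Col4a1-high replicates, against 0, 1.47, 0 and 15.8 in the Col4a1-low replicates (7.74 ± 2.84). Neither gene overlapped between the classes, and both were near 0 in the Col4a1-low IL4-/-KO and KO replicates. Fn1, encoding the adhesion glycoprotein fibronectin, had 432, 3858, 4209 and 3795 normalized counts in the Col4a1-high replicates, against 122, 0.425, 269.7 and 191 in the Col4a1-low replicates. Thbs2, encoding the secreted matricellular protein thrombospondin-2, had 72.2, 182, 169 and 42.2 in the Col4a1-high replicates, against 0 in all 5 Col4a1-low libraries, which made it at least 10.6-fold to at least 69.5-fold higher over the pairs, with the low side set at 3 reads per library. Bgn, encoding the small proteoglycan biglycan, had 53.4, 67.6, 117 and 1492 normalized counts in the Col4a1-high replicates, against 0, 0.425, 0 and 1.32 in the Col4a1-low replicates, and the Col4a1-high WT replicate stood above the other 3. Fn1, Thbs2 and Bgn were each apart between the classes. Postn, encoding periostin, had 89.5, 11.2, 62.5 and 703 normalized counts in the Col4a1-high replicates, against 5.20, 0.425, 0 and 0 in the Col4a1-low replicates. Sparc, encoding a collagen-binding matricellular protein, had 149, 116, 135 and 133 normalized counts in the Col4a1-high replicates, against 23.0, 33.2, 72.9 and 0 in the Col4a1-low replicates, and its high class was level across genotypes.

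**Figure D1:**
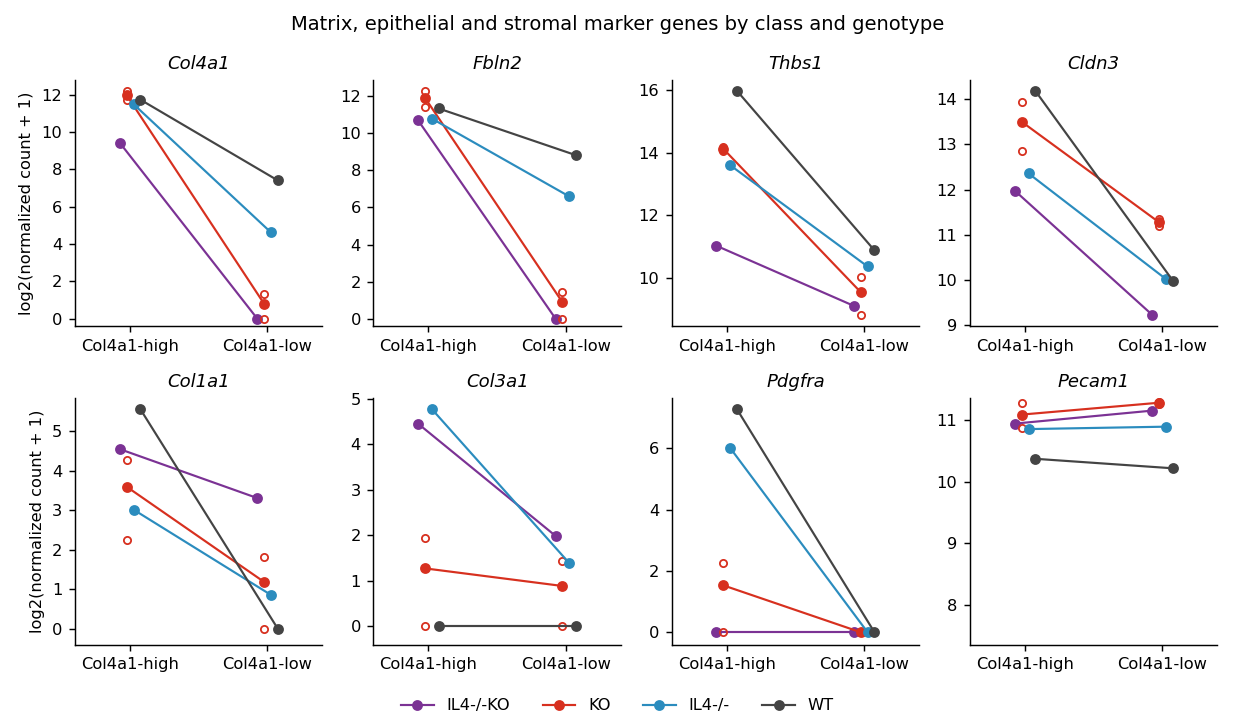
Each panel plots log2(normalized count + 1) of 1 gene, on its own axis, in the Col4a1-high (left) and Col4a1-low (right) replicate of each genotype, joined by a line. Filled points are replicates and open red points the 2 libraries of each KO replicate. Col4a1, Fbln2, Thbs1 and Cldn3 fall from left to right in all 4 pairs without overlap, whereas Col1a1 and Col3a1 stay under 6 log2 units and Pecam1 is level.

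Markers of stromal cells gave a mixed answer to the name stroma-rich, so the classes are called by Col4a1. Summed levels of the fibroblast list and of the pericyte and smooth muscle list were higher in the Col4a1-high replicate of each pair, while several defining genes were at or near 0 and endothelial genes had no single direction. Col1a1, a chain of the main fibrillar collagen of fibroblasts, had 22.4, 11.1, 7.09 and 46.1 normalized counts in the Col4a1-high replicates, against 8.91, 1.27, 0.810 and 0 in the Col4a1-low replicates. Col1a2, its partner chain, had 4.33, 1.60, 8.37 and 0 normalized counts in the Col4a1-high replicates, against 0.742, 1.70, 5.67 and 34.3 in the Col4a1-low replicates, with its top value in the Col4a1-low WT replicate. Col3a1 had 20.9, 1.42, 26.4 and 0 normalized counts in the Col4a1-high replicates, against 2.97, 0.849, 1.62 and 0 in the Col4a1-low replicates. These 3 fibroblast collagens never passed 46.1 in any replicate. Of the 11 genes of the fibroblast list, 4 passed the filter on low values, and Fap, Dpt and Prrx1 were at most 7.73 in the Col4a1-high class and 0 in the Col4a1-low class. Pdgfra, a receptor gene of fibroblasts, had 0, 1.89, 63.8 and 154 normalized counts in the Col4a1-high replicates, against 0, 0, 0 and 0 in the Col4a1-low replicates, with a value well above 3 reads in IL4-/- and WT, and with 0 and 3.78 in the first and repeat libraries of the KO replicate. Cxcl12, a chemokine gene of fibroblasts and vessels, was low but apart, with 48.4, 24.6, 89.5 and 29.0 normalized counts in the Col4a1-high replicates, against 4.45, 5.88, 0 and 0 in the Col4a1-low replicates. The list median of the 4 tested genes was 3.63, and 3.83 with the gene at its bound. The summed level of the list was 172, 337, 332 and 278 normalized counts in the Col4a1-high replicates, against 63.8, 219, 52.7 and 26.4 in the Col4a1-low replicates. In the KO pair Pdgfra and Cxcl12 gave a small part of the sums, so other members of the list held most of them.

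Endothelial genes had no single direction. Of 18 listed endothelial genes, 12 were in the table and 8 were tested, with a median of 1.35. In all 4 pairs 0 were higher and 0 lower (14.4% and 15.4% of all genes were). Pecam1, an adhesion receptor gene of endothelium that T cells and myeloid cells also express, had 1968, 2178, 1850.0 and 1324 normalized counts in the Col4a1-high replicates, against 2278, 2489.5, 1901 and 1189.5 in the Col4a1-low replicates (-0.07 ± 0.17). Kdr and Flt1, which encode receptors for the vessel growth factor VEGF, were at most 28.9 and 167 in the Col4a1-high class and at most 5.15 and 78.7 in the Col4a1-low class. Eng, encoding endoglin, reached 498 in the Col4a1-high WT replicate and 73.2 in the Col4a1-low KO replicate, and was higher in 2 pairs and lower in 2. Of the 12 pericyte and smooth muscle genes, 8 were tested, with a median of 2.06. In all 4 pairs 2 were higher, Notch3 and Tagln (14.4% of all genes were), and 0 lower. The pair medians were 1.57 in IL4-/-KO, 3.02 in KO, 1.01 in IL4-/- and 0.02 in WT. The summed level was 3964, 3467, 968 and 736 normalized counts in the Col4a1-high replicates, against 937, 593, 520.0 and 325 in the Col4a1-low replicates, higher in each pair. Kcnj8, a potassium channel subunit gene, gave the largest share of the IL4-/-KO sums and was lower in the Col4a1-high replicates of IL4-/- and WT, with 3256, 1143, 171 and 141 normalized counts in the Col4a1-high replicates, against 680.1, 335, 255 and 181 in the Col4a1-low replicates. Notch3 had 247, 524, 521 and 408 normalized counts in the Col4a1-high replicates, against 133, 162, 99.6 and 25.1 in the Col4a1-low replicates without overlap. Pdgfrb, the defining pericyte receptor gene, was at 21.3 in the Col4a1-high IL4-/- replicate and at 0 in every other library. Acta2, encoding smooth muscle actin, had 287, 1180.5, 76.7 and 38.2 normalized counts in the Col4a1-high replicates, against 52.0, 38.7, 113 and 7.92 in the Col4a1-low replicates, with the KO replicate on top and the IL4-/- pair in the opposite direction.

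Mammary and tumour epithelial genes were higher in the Col4a1-high class. Of 16 listed genes, 15 were tested, with a median of 1.84. In all 4 pairs 10 were higher (14.4% of all genes were) and 0 lower (15.4% were). At least 2-fold higher in each pair were 5 (4.01% of all genes were). The summed level of the list was 51785, 139621, 103675 and 239233 normalized counts in the Col4a1-high replicates, against 16065, 84039, 41412 and 31149 in the Col4a1-low replicates. The sums overlapped across genotypes, since the Col4a1-low KO replicate lay above the Col4a1-high IL4-/-KO one. Cldn3, encoding a tight junction claudin (chromosome 5, 134986214 to 134987472), had 4034, 11596, 5254 and 18587 normalized counts in the Col4a1-high replicates, against 601, 2484, 1041 and 1017 in the Col4a1-low replicates (2.87 ± 0.91). Elf5, encoding a transcription factor of luminal progenitors, had 267, 235, 463 and 1332 normalized counts in the Col4a1-high replicates, against 17.8, 86.4, 76.1 and 75.3 in the Col4a1-low replicates. Neither overlapped between the classes. Wfdc18, a secreted protein gene of mammary epithelium, had 6276, 7299, 13591 and 48567 normalized counts in the Col4a1-high replicates, against 529, 3321, 2228 and 3055 in the Col4a1-low replicates, also without overlap. Krt8, a luminal keratin gene (chromosome 15, 101996698 to 102004482), had 6575, 27803, 8736 and 39788 normalized counts in the Col4a1-high replicates, against 3479, 10987, 2581 and 2873 in the Col4a1-low replicates (1.95 ± 1.27). It was higher in every pair, yet the Col4a1-low KO replicate exceeded the Col4a1-high IL4-/-KO and IL4-/- replicates. Epcam, an epithelial adhesion gene, had 4494, 7949, 5979.7 and 17119 normalized counts in the Col4a1-high replicates, against 1844, 4693, 2829 and 1716 in the Col4a1-low replicates, with the same kind of overlap. Casein gene Csn3 and keratin gene Krt19 had no single direction, at 2.12 ± 2.47 and 1.28 ± 1.99.

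Col4a1 chose the classes, so its ratio to Krt8 is given as a description alone. Per 1000 normalized counts of Krt8, Col4a1 was 104 in the Col4a1-high IL4-/-KO replicate, 145 and 143 in the libraries of the KO replicate, 328 in the IL4-/- replicate and 85.1 in the WT replicate. In the Col4a1-low class it was 0 in IL4-/-KO, 0.141 and 0 in the KO libraries, 9.10 in IL4-/- and 58.4 in WT. The KO libraries of the low class held 10425 and 11549 normalized counts of Krt8 but 1.47 and 0 of Col4a1, against 6575 of Krt8 and 682 of Col4a1 in the Col4a1-high IL4-/-KO library. The per-Krt8 ratios are of counts not corrected for gene length, which cancels between libraries.

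**Figure D2:**
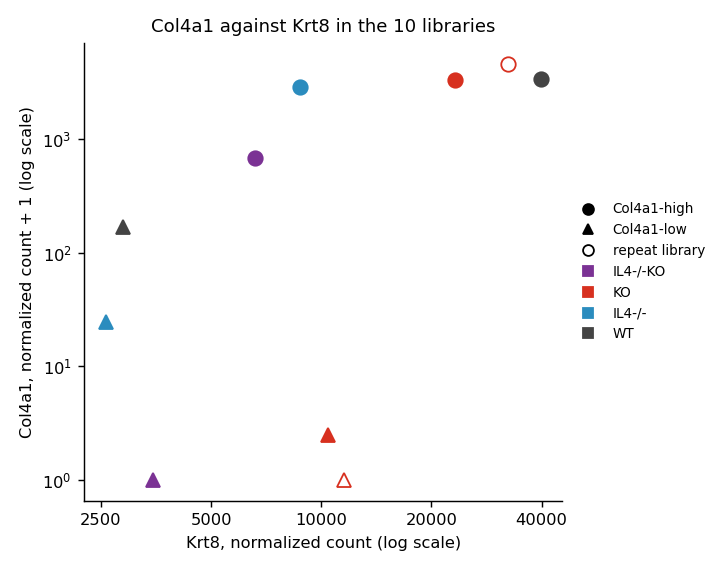
Each point is 1 of the 10 libraries, with the Krt8 normalized count on the x axis and the Col4a1 normalized count plus 1 on the y axis, both log scales. Circles are Col4a1-high and triangles Col4a1-low libraries, coloured by genotype, and open symbols are the repeat libraries of the KO replicates. The KO triangles sit right of the IL4-/-KO and IL4-/- circles on Krt8 but at the bottom on Col4a1.

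Of 4 tested myoepithelial genes, 2 keratins were higher in all 4 pairs (14.4% of all genes were) and 0 genes were lower in all 4. Krt17 had 1235, 4475, 479 and 3786 normalized counts in the Col4a1-high replicates, against 83.9, 472, 400.1 and 202 in the Col4a1-low replicates, and Krt14 had 1012, 2529, 631 and 5675 normalized counts in the Col4a1-high replicates, against 308, 236, 289 and 302 in the Col4a1-low replicates. Both were apart between the classes, whereas Krt5, their usual companion in basal cells, was at most 32.5 in the Col4a1-high class and 51.0 in the Col4a1-low class. Of 4 Schwann cell genes 2 were higher in all 4 pairs, Sox10 and S100b (14.4% of all genes were). Of 2 mast cell genes 1 was, Kit. Sox10, a transcription factor gene of Schwann cells that is also active in mammary progenitors of mice, had 1581, 2953, 2282 and 4949 normalized counts in the Col4a1-high replicates, against 63.1, 499, 927 and 206 in the Col4a1-low replicates. Kit, a receptor gene of luminal progenitors and mast cells, had 1941, 1515, 5129 and 9068 normalized counts in the Col4a1-high replicates, against 249, 591, 1886 and 945 in the Col4a1-low replicates, higher in every pair, while the mast cell gene Cpa3 stayed at or below 25.7.

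Genes whose level followed Col4a1 most closely were ranked by Pearson correlation of log2 values over the 10 libraries, among 11791 genes with a mean of at least 50 normalized counts. Libraries of a KO replicate share their RNA, and Col4a1 was chosen for its pattern, so the values are descriptions. Col4a2 came first (r = 0.98), followed by Fbln2 (0.98), Slc30a2 (0.97), Shisa8 (0.97), Sez6 (0.97), Igfbp2 (0.97), Sfrp1 (0.96), Tnfrsf11a (0.96), Syt13 (0.96) and Fam171a1 (0.95). For Krt8 it was 0.53. Igfbp2, a binding protein gene for insulin-like growth factors, had 521, 4049, 509 and 5795 normalized counts in the Col4a1-high replicates, against 0, 0, 75.3 and 27.7 in the Col4a1-low replicates. Sfrp1, encoding a secreted Wnt inhibitor, had 326, 273, 808 and 1138 normalized counts in the Col4a1-high replicates, against 0, 0.425, 54.3 and 63.4 in the Col4a1-low replicates. Tnfrsf11a, which encodes the RANK receptor of mammary epithelium and osteoclasts, was the one of the 10 that stayed well above 0 in the low class, with 463, 855, 641 and 706 normalized counts in the Col4a1-high replicates, against 86.1, 106, 159 and 193 in the Col4a1-low replicates. All 3 were apart between the classes.

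Enzymes that build collagen were higher in part. Of 12 tested, 5 were higher in all 4 pairs (14.4% of all genes were) and 0 were lower, with a median of 1.34. Serpinh1, encoding the collagen chaperone HSP47, had 1025, 3657, 1789 and 6000.1 normalized counts in the Col4a1-high replicates, against 24.5, 314, 157 and 632 in the Col4a1-low replicates (3.90 ± 0.96). Plod1, a lysyl hydroxylase gene, had 994, 1233, 1797 and 1078 normalized counts in the Col4a1-high replicates, against 348, 375, 254 and 533 in the Col4a1-low replicates. Loxl1, which encodes a crosslinking oxidase of elastic fibres, had 6.50, 41.0, 36.1 and 21.1 in the Col4a1-high replicates and 0 in all Col4a1-low libraries. These 3 were apart, whereas the prolyl hydroxylase gene P4ha1, which many cells use, was level at -0.07 ± 0.43. Among 9 tested proteases and inhibitors, 5 were higher in all 4 pairs (14.4% of all genes were) and 0 were lower (15.4% were). The median was 1.75. Mmp14, encoding a membrane-bound matrix metalloprotease, had 492, 936, 1634 and 3069 normalized counts in the Col4a1-high replicates, against 228, 467, 354 and 482 in the Col4a1-low replicates, and Timp2, an inhibitor gene of that family, had 3657, 5059.8, 4901 and 9522 normalized counts in the Col4a1-high replicates, against 2108, 2892, 2232 and 1883 in the Col4a1-low replicates. Both were apart. Timp3, another inhibitor gene, had 344, 2885, 1109.9 and 13138 normalized counts in the Col4a1-high replicates, against 37.9, 289, 628 and 904 in the Col4a1-low replicates, and the high WT replicate exceeded the other 7.

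Of 15 tested TGF-beta ligands, activators and targets, 7 were higher in all 4 pairs (14.4% of all genes were) and 0 lower. The median was 0.87, and 6 were apart on the higher side (5.92% of all genes were). Those 6 were Tgfb2, Tgfb3, Ltbp1, Ltbp2, Ltbp3 and Thbs1, which encode ligands, matrix proteins that store them and an activator. Smad6, a feedback inhibitor gene, was the other gene higher in all 4 pairs. Thbs1, encoding thrombospondin-1, which can activate latent TGF-beta (chromosome 2, 118111876 to 118127133), had 2081, 17852, 12410.3 and 64364 normalized counts in the Col4a1-high replicates, against 549, 744, 1315 and 1879 in the Col4a1-low replicates (3.71 ± 1.43). Tgfb3 had 1731, 1764, 5276 and 4861 normalized counts in the Col4a1-high replicates, against 222, 979, 625 and 694 in the Col4a1-low replicates (2.42 ± 1.05). Ltbp3 had 1901, 5161, 3348 and 5455 normalized counts in the Col4a1-high replicates, against 34.9, 1873, 516 and 397 in the Col4a1-low replicates, with the low KO replicate just under the high IL4-/-KO one. Tgfb1, the ligand gene that T cells express, differed by 0.13 ± 0.28, less than its spread over pairs. The feedback genes Pmepa1, Smad7 and Skil differed by 0.16 ± 0.75, -0.08 ± 0.92 and -0.76 ± 0.67, and Itgae, an integrin gene that TGF-beta raises in T cells, by -1.05 ± 2.02, none with a single direction in the 4 pairs.

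Of 12 tested matrix receptors, 4 were higher in all 4 pairs (14.4% of all genes were) and 3 were lower (15.4% were). The median was -0.08. The higher ones were Ddr1, a collagen receptor kinase gene of epithelium, the integrin genes Itgb5 and Itga6, and Dag1, which encodes the laminin receptor dystroglycan. Dag1 had 1614, 3065, 2676 and 6596 normalized counts in the Col4a1-high replicates, against 918, 1016, 1186 and 1101 in the Col4a1-low replicates without overlap. The lower ones were the integrin genes Itga2 (-1.23 ± 0.39) and Itgb1 (-0.33 ± 0.24), and Cd44 (-0.20 ± 0.08), which encodes a hyaluronan receptor. Itga2, a subunit of a collagen receptor of T cells and platelets, had 378, 227, 128 and 67.2 normalized counts in the Col4a1-high replicates, against 894, 395, 282 and 226 in the Col4a1-low replicates, lower in each pair with overlap across genotypes.

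Other immune cells did not follow the classes as a group. The median of the 13 macrophage and monocyte genes differed in sign between genotypes, at -1.20 in IL4-/-KO, 0.76 in KO, 2.90 in IL4-/- and -1.52 in WT. The summed level of this list was 9955 to 115479 normalized counts in the Col4a1-high class and 13626 to 18622 in the Col4a1-low class, with the top value in IL4-/-. Lyz2, encoding a macrophage lysozyme, had 1267, 2778, 28932 and 856 normalized counts in the Col4a1-high replicates, against 4934, 1194, 2867 and 3429 in the Col4a1-low replicates. Cd74, the invariant chain gene of antigen-presenting cells, had 5403, 20083, 56413 and 2916 normalized counts in the Col4a1-high replicates, against 25299, 6583, 8703 and 14817 in the Col4a1-low replicates, higher in the KO and IL4-/- pairs and lower in the other 2. The neutrophil gene S100a8 was high in 1 Col4a1-low replicate, with 121, 217, 70.2 and 291 normalized counts in the Col4a1-high replicates, against 12.6, 2027, 18.6 and 21.1 in the Col4a1-low replicates. Of 6 B cell and plasma cell genes, 0 were higher and 1 was lower in all 4 pairs, Jchain, and of 5 CD8 T cell and NK cell genes 0 were higher and 1 was lower, Ncr1, which was at most 58.7 anywhere. Of 9 antigen-presenting cell genes, 0 were higher and 1, Xcr1, was lower in all 4 pairs, with a median of -0.10. Over all genes tested, 15.4% were lower in all 4 pairs, so 1 lower gene in lists this short was near that share. Of 7 neutrophil, 3 erythrocyte, 2 platelet and 2 adipocyte genes tested, 0 had one direction in all 4 pairs, with medians of 0.05, 1.03, 1.78 and -0.39. The part of these cells in the differences of other genes was not tested.

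T cell genes were level or modestly lower in the Col4a1-high class. Of 14 tested core T cell genes, 5 were lower in all 4 pairs (15.4% of all genes were) and 0 were higher, with a median of -0.47, and 3 were apart (2.09% of all genes were), among them Cd3g and Cd28. The summed level was 233090.1, 267469.6, 151430.4 and 147068 normalized counts in the Col4a1-high replicates, against 229647, 294825, 241619 and 249004 in the Col4a1-low replicates. The sums were lowest in the Col4a1-high IL4-/- and WT replicates, of which the first held 115479 normalized counts of the macrophage list and the other 239233 of the epithelial list, the top values of those lists, and the part of these in the difference was not tested. Cd3g, a chain of the T cell receptor complex (chromosome 9, 44969572 to 44980431), had 19017, 18503, 9213 and 18041 normalized counts in the Col4a1-high replicates, against 23221, 31660.4, 24478 and 22178 in the Col4a1-low replicates (-0.69 ± 0.53). Cd28, the main costimulatory receptor gene, had 9875, 7326, 9872 and 6925 normalized counts in the Col4a1-high replicates, against 15326, 11994, 11952 and 11729 in the Col4a1-low replicates (-0.60 ± 0.22). Cd3e and Cd4, which define the sorted cells, differed by -0.10 ± 0.58 and -0.13 ± 0.44, less than the spread over pairs.

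Activation and effector genes were lower as well. Of 12 tested, 5 were lower in all 4 pairs (15.4% of all genes were) and 0 were higher, with a median of -0.48. Gzmb, the cytotoxic protease gene granzyme B (chromosome 14, 56258838 to 56262260), had 7887, 3933, 1942 and 3782 normalized counts in the Col4a1-high replicates, against 15750.3, 76533, 7341 and 10602 in the Col4a1-low replicates (-2.17 ± 1.46). The Col4a1-low KO replicate stood far above the other 7, and the classes overlapped across genotypes. Icos, a costimulatory receptor gene, had 8152, 5489.5, 13179 and 11406 normalized counts in the Col4a1-high replicates, against 15132, 22998, 15711 and 17385 in the Col4a1-low replicates without overlap (-0.96 ± 0.79). Ctla4 and Ifng, an inhibitory receptor gene and the gene of interferon gamma, were lower in 3 of 4 pairs, at -1.18 ± 1.59 and -1.14 ± 1.21. Cd160, a receptor gene of cytotoxic and NK cells, had 162, 258, 65.1 and 354 normalized counts in the Col4a1-high replicates, against 523, 591, 633 and 1637 in the Col4a1-low replicates (-2.09 ± 0.89), so every Col4a1-high replicate lay below every Col4a1-low one. Of 7 naive and lymph node homing genes, Klf2 was higher and Il7r lower in all 4 pairs. Over all genes, 14.4% were higher and 15.4% lower, so 1 of 7 each way was near those shares. Klf2, a transcription factor gene of quiescent and recirculating T cells (chromosome 8, 72319033 to 72321656), had 21724, 31615, 16605 and 14355 normalized counts in the Col4a1-high replicates, against 13691, 12561, 11408 and 7164 in the Col4a1-low replicates (0.89 ± 0.36). Its classes did not overlap.

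**Figure D3:**
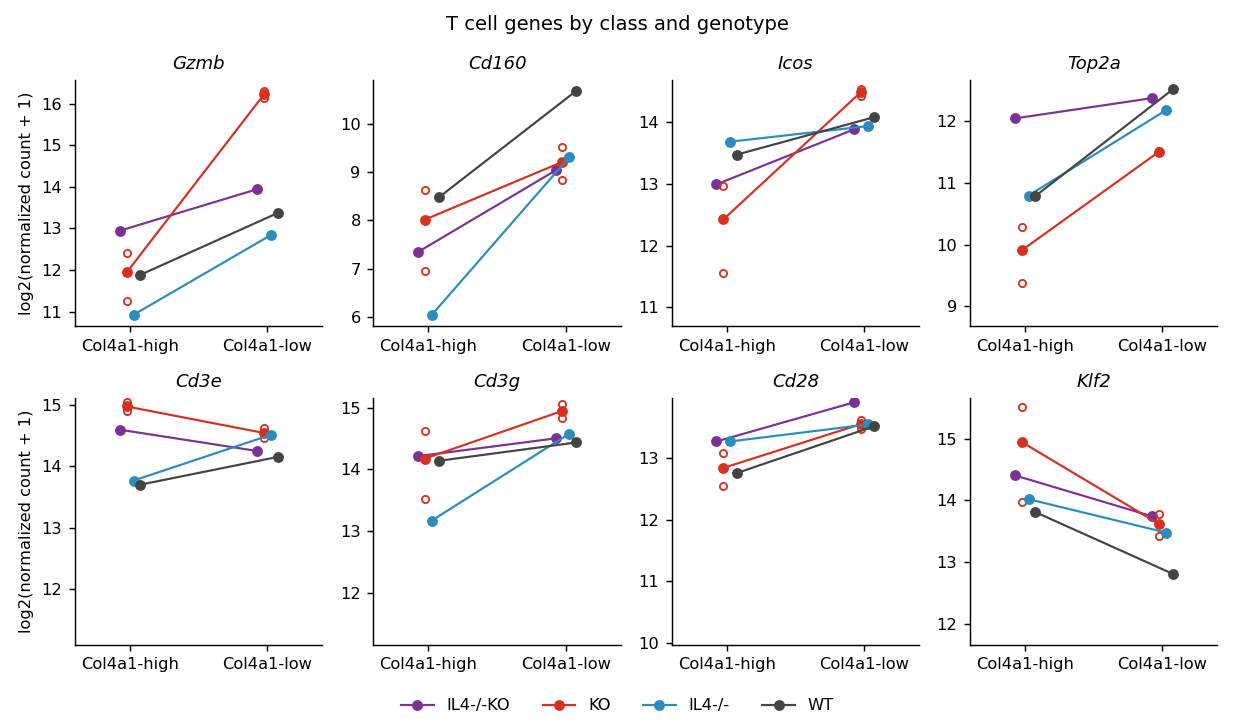
Each panel plots log2(normalized count + 1) of 1 T cell or cell cycle gene, on its own axis, in the Col4a1-high (left) and Col4a1-low (right) replicate of each genotype, joined by a line, with open red points for the 2 libraries of each KO replicate. Gzmb, Cd160, Icos, Top2a, Cd3g and Cd28 are higher on the right in all 4 pairs and Klf2 on the left, while Cd3e goes up in 2 pairs and down in 2.

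Proliferation genes were lower in the Col4a1-high class, with a median of -0.51. In all 4 pairs 10 of 18 were lower (15.4% of all genes were) and 0 higher. Top2a, the DNA topoisomerase gene of dividing cells, had 4234, 958, 1776 and 1766 normalized counts in the Col4a1-high replicates, against 5323, 2910.4, 4643 and 5872 in the Col4a1-low replicates (-1.26 ± 0.64). Mki67, the gene of the Ki-67 proliferation marker, had 2569, 134, 1741 and 126 normalized counts in the Col4a1-high replicates, against 5099.6, 436, 2637 and 1838 in the Col4a1-low replicates, lower in each pair with overlap across genotypes. The replication helicase gene Mcm4 was lower in each pair (-0.74 ± 0.48), whereas its partners Mcm2, Mcm5 and Mcm7 had no single direction (-0.02 ± 0.76, -0.23 ± 0.39 and -0.01 ± 0.26). Of 13 interferon-stimulated genes, 5 were lower in all 4 pairs (15.4% of all genes were) and 1, Irf7, was higher (14.4% were). The median was -0.51. Mx1, an antiviral GTPase gene, had 1026, 628, 1277 and 697 normalized counts in the Col4a1-high replicates, against 1755, 1405, 1893 and 1896 in the Col4a1-low replicates without overlap.

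Stress genes differed in direction from list to list. Beside the list counts, 14.4% of all genes were higher and 15.4% lower in all 4 pairs. Immediate early genes were higher in 4 of 11, Fos, Fosb, Egr1 and Ier2, and lower in 0, with a median of 0.57. Fosb had 1106, 8205, 3315 and 8328 normalized counts in the Col4a1-high replicates, against 555, 3258, 653 and 1553 in the Col4a1-low replicates, higher in each pair with wide overlap across genotypes. Heat shock genes were lower in 3 of 7, Hsph1, Hspd1 and Hsp90aa1, and higher in 0, with a median of -0.31. Hypoxia and glycolysis genes were higher in 4 of 11 and lower in 0, with a median of 0.31, led by Egln3, an oxygen-sensing hydroxylase gene, with 1274, 4159.6, 2589.5 and 5419 normalized counts in the Col4a1-high replicates, against 409.8, 1687, 578 and 959.8 in the Col4a1-low replicates. Of 12 ribosomal protein genes, 0 had one direction in all pairs, and their median was 0.22.

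**Figure D4:**
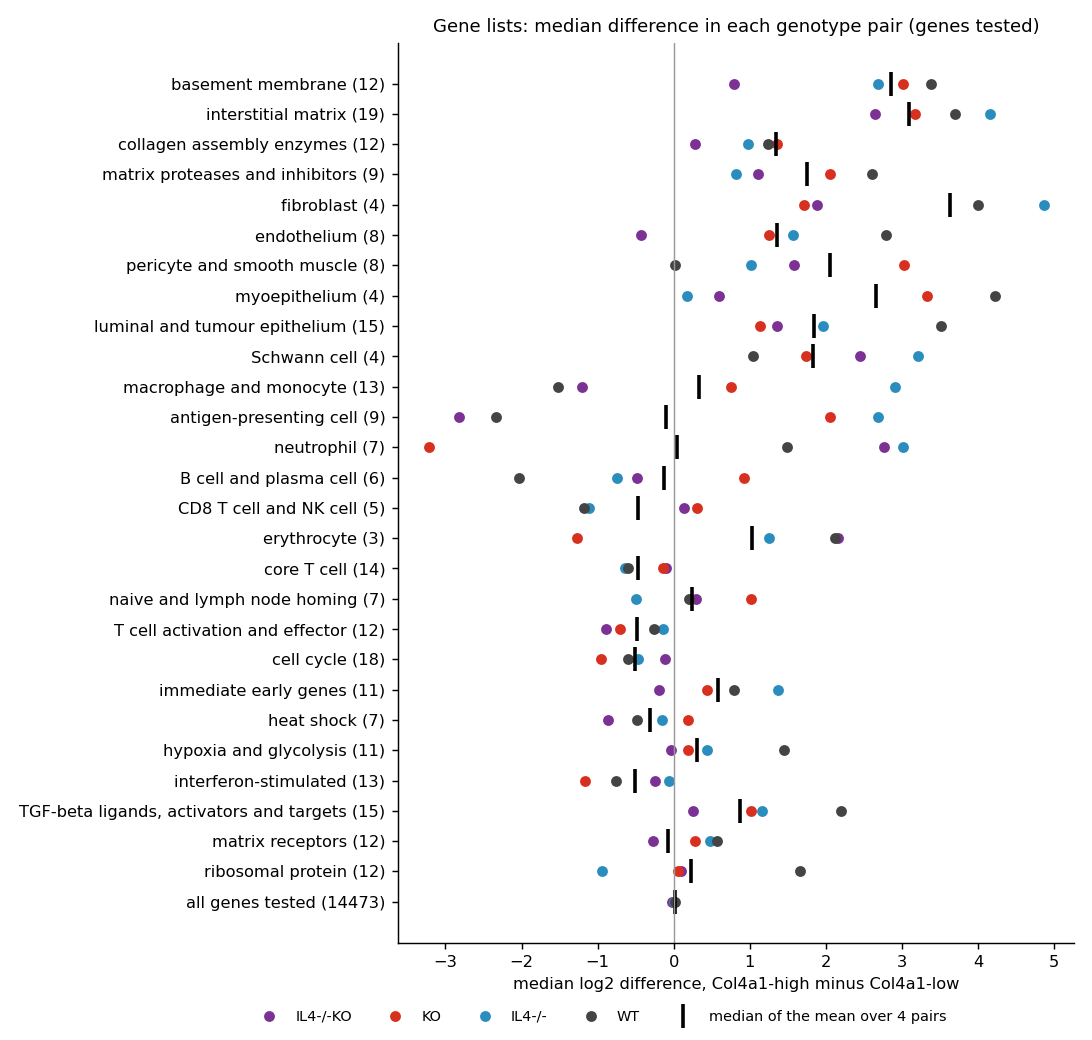
For each gene list with at least 3 tested genes (number in brackets), coloured points show the median log2 difference, Col4a1-high minus Col4a1-low, in each genotype pair, and the black tick the median of the genes' means over the 4 pairs. The basement membrane, interstitial matrix, collagen enzyme, protease, fibroblast, myoepithelium, epithelium, Schwann cell and TGF-beta lists lie right of 0 in all 4 pairs. So does the pericyte and smooth muscle list, at 0.02 in WT. The core T cell, activation, cell cycle and interferon-stimulated lists lie left of 0. Endothelium, matrix receptor, macrophage, antigen-presenting and neutrophil lists lie on both sides.

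Outside the lists, several of the genes with the largest smallest-pair difference were at 0 in every Col4a1-low library. Adgrf5, an adhesion receptor gene (chromosome 17, 43360451 to 43459557), had 249, 200.4, 346 and 241 normalized counts in the Col4a1-high replicates and 0 in all Col4a1-low libraries, at least 57.6-fold to at least 142-fold higher over the pairs. Aatk, a tyrosine kinase gene, had 194, 359, 189 and 109 normalized counts in the Col4a1-high replicates, against 0, 0.849, 0 and 0 in the Col4a1-low replicates. Atp12a, a proton and potassium pump gene, Slc2a10, a glucose transporter gene, and Lingo3 were likewise at 0 in all Col4a1-low libraries, and reached 67.2 to 245 in the Col4a1-high class for Atp12a and Slc2a10 and 36.7 to 263 for Lingo3. Gas1, a growth arrest gene, had 336, 154, 266 and 472 normalized counts in the Col4a1-high replicates, against 0, 0, 0 and 18.5 in the Col4a1-low replicates, and Gpc6, a glypican gene, had 131, 224, 128 and 165 normalized counts in the Col4a1-high replicates, against 0, 0, 0 and 3.96 in the Col4a1-low replicates. Egr4, a member of the early growth response family, had 554, 1380.1, 679 and 1525 normalized counts in the Col4a1-high replicates, against 0, 8.82, 0 and 58.1 in the Col4a1-low replicates. None of these overlapped between the classes. The log2 sizes of genes near 0 depend on the pseudocount, which at 10 in place of 1 took Adgrf5 to 4.72, in place of 7.99, and Thbs2 to 3.46, in place of 6.64.

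On the lower side, 34 genes were at least 2-fold lower in each pair. Zfp473, a zinc finger gene, had 0.722, 20.5, 3.86 and 23.7 normalized counts in the Col4a1-high replicates, against 75.0, 116, 42.1 and 103 in the Col4a1-low replicates. Cul3, a scaffold gene of ubiquitin ligases, had 1064, 681, 918 and 1982 normalized counts in the Col4a1-high replicates, against 2583, 1538, 2706 and 6607 in the Col4a1-low replicates, a difference of -1.44 ± 0.26. The libraries of the KO replicates disagreed, with 1292 and 69.0 in the Col4a1-high replicate and 2488 and 589 in the Col4a1-low one, the first library and its repeat in each. Cd200r4, of the CD200 receptor family, had 352, 239, 251 and 239.7 normalized counts in the Col4a1-high replicates, against 1007, 667, 552 and 828 in the Col4a1-low replicates. Zfp473 and Cd200r4 were apart, and Cul3 overlapped across genotypes through WT. Fbxo11, an F-box gene, had 91.7, 61.5, 337 and 220.0 normalized counts in the Col4a1-high replicates, against 358, 340.2, 706 and 826 in the Col4a1-low replicates, also apart. C1galt1, a glycosyltransferase gene, differed by -1.51 ± 0.44 and Depdc1a by -1.30 ± 0.20. Cd200r4 has close relatives in the genome, so its counts are uncertain where reads could be split between copies.

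The difference also followed the base composition of transcripts. Across 14216 genes with an annotated transcript, the Spearman correlation of the difference with transcript GC content was 0.30 in IL4-/-KO, 0.47 in KO, 0.14 in IL4-/- and 0.27 in WT, and with length -0.07, -0.01, 0.13 and -0.19. In the fifth of genes with the least GC, the median of the mean difference was -0.48, and 36.9% were lower and 4.04% higher in all 4 pairs. In the fifth with the most GC, the median was 0.35, and 1.93% were lower and 26.5% higher. Median GC was 54.1% among genes higher in all pairs, 44.7% among genes lower in all pairs and 50.2% among all genes. The T cell activation list lay at 44.7%, the cell cycle list at 47.3%, the interferon list at 47.5%, the interstitial matrix list at 52.5%, the epithelium list at 54.2% and the basement membrane list at 56.9%. With the GC trend of each pair removed, a step chosen after seeing the data, the epithelium list had 11 genes higher in all pairs, the interstitial matrix list 11 and the basement membrane list 5 with 1 lower, with medians of 1.61, 2.97 and 2.58. The core T cell list had 7 lower, the cell cycle list 8, the interferon list 5 and the activation list 3, while the heat shock list had 0 lower and the immediate early list 1 higher. Beside these list counts, 1973 of all 14216 genes were higher and 1765 lower in all pairs after removal. Cd28 was then at -0.07, Cul3 at -0.84 and Klf2 at 0.35, and the small differences of Il2 and Eno1 changed sign. Of the 573 genes at least 2-fold higher that had a transcript, 456 were among the 512 such genes after removal, 79.6% of the first list and 89.1% of the second. Of the 2196 genes lower in all pairs, 1166 were among 1765 after removal, 53.1% of the first list and 66.1% of the second.

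**Figure D5:**
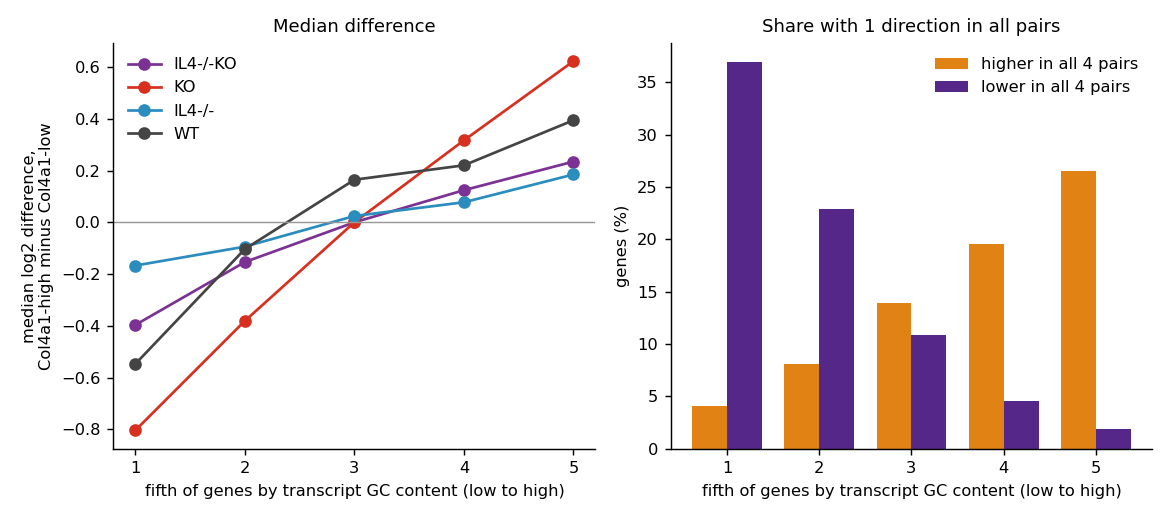
Genes are split into 5 equal bins by transcript GC content, low to high on the x axis. Left, the y axis is the median log2 difference, Col4a1-high minus Col4a1-low, for each genotype pair. Right, bars give the percentage of genes higher (orange) or lower (purple) in all 4 pairs. Medians climb with GC in all 4 pairs, steepest in KO, and the share of lower genes goes from 36.9% to 1.93%.

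The genotype contrasts were not used to form the classes and could be tested, with the class as a term, by limma over the 8 replicates with adjustment over all 14473 genes. Tgfbr2 deletion (IL4-/-KO and KO against IL4-/- and WT) called 12 genes (0.0829%), 7 higher and 5 lower, and 7 without the class term. Il4 deficiency (IL4-/-KO and IL4-/- against KO and WT) called 37 (0.256%), 31 higher and 6 lower, and 0 without it, where 1687 had an unadjusted p under 0.05. On recovered reads with the class term, Tgfbr2 deletion had 3 calls by edgeR and 567 by DESeq2, and Il4 deficiency 0 by edgeR and 778 by DESeq2. The class term lowered the median residual SD of the 581 genes at least 2-fold higher in all pairs to 1.01 with it, against 2.32 without it, and of all genes to 0.54, against 0.62. The Col4a1-high replicate was replicate 2 in IL4-/-KO, KO and IL4-/- and replicate 1 in WT, so the class cannot be told apart from the replicate number in 3 of the 4 genotypes. The 581 genes were picked by their class difference, so the fall in their residual SD follows from that choice. The split was chosen on these libraries, so the smaller spread of all genes is also that left after a chosen split. The limma p-values with the class term rest on that spread and may be too small. Col4a1 set the class term, so its genotype means carry no test. It averaged 1170 normalized counts with Tgfbr2 deletion and 1611 without it, and 893 with Il4 deficiency and 1887 without it.

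Of the 581 genes, 0 passed limma for Tgfbr2 deletion and 1 for Il4 deficiency, beside the shares of 0.0829% and 0.256% over all genes. For Tgfbr2 deletion, 139 of them (23.9%, against 14.3% of all genes) had an unadjusted p under 0.05, 0 passed edgeR and 56 (9.64%, against 3.92%) passed DESeq2, with a limma median of -0.63, against -0.08 for all genes. For Il4 deficiency, 108 (18.6%, against 16.3%) had an unadjusted p under 0.05, 0 passed edgeR and 54 (9.29%, against 5.38%) passed DESeq2, with a limma median of -0.55, against -0.02. The 581 genes were picked on these same replicates, and in 329 of them at least 1 Col4a1-low library was at 0. Their shares are therefore descriptions, and nothing is read from the distance to all genes. The gene that passed limma was Cyr61, encoding a secreted integrin-binding matrix protein, which had 8155, 25370.2, 26586 and 79790.4 normalized counts in the Col4a1-high replicates, against 1396, 6902, 2424 and 8378 in the Col4a1-low replicates. It fell with Il4 deficiency by 1.83 on the log2 scale (SE 0.28, limma adjusted p = 0.0493, n = 4 per side), and the call was lost in 11 of the 17 alternatives, among them no class term (adjusted p = 0.499). Of 91 tested genes of the matrix, stromal and epithelial lists, 0 passed limma for Tgfbr2 deletion, with 19 (20.9%) at an unadjusted p under 0.05, 0 by edgeR and 6 (6.59%) by DESeq2. For Il4 deficiency 0 passed limma, with 18 (19.8%) unadjusted, 0 by edgeR and 9 (9.89%) by DESeq2. Of 44 tested core T cell, activation and cell cycle genes, 0 passed limma for Tgfbr2 deletion, but 21 (47.7%, against 14.3% of all genes) had an unadjusted p under 0.05 and 10 (22.7%, against 3.92%) passed DESeq2, with 0 by edgeR. For Il4 deficiency 0 passed limma, with 10 (22.7%, against 16.3%) unadjusted, 0 by edgeR and 4 (9.09%, against 5.38%) by DESeq2. In the TGF-beta list, Skil, a feedback inhibitor gene of SMAD signalling, fell with Tgfbr2 deletion (-2.42 ± 0.27, SE, limma adjusted p = 0.0148, n = 4 per side). It had 1767 and 3497 normalized counts in the Col4a1-high and Col4a1-low IL4-/-KO replicates and 1676 and 2484 in the KO ones, against 12174 and 11838 in IL4-/- and 7125 and 20725 in WT, so the sides did not overlap. Skil passed in 11 of 17 alternatives. The limma adjusted p was 0.114 without the class term, 0.212 with a replicate block, and 0.0564, 0.0694 and 0.0702 without IL4-/- replicate 2, IL4-/-KO replicate 2 or KO replicate 2, and edgeR gave 0.0570. Pmepa1, another inhibitor gene, fell by 2.47 (limma adjusted p = 0.0238, and 0.0413 without the class term), and passed in 8 of 17 alternatives. Ski, a relative of Skil, fell with Il4 deficiency (-2.24 ± 0.24, SE, limma adjusted p = 0.0214, and 0.0715 without the class term) and passed in 8 of 17. Jchain, a plasma cell gene, was higher with Tgfbr2 deletion (4.45 ± 0.62, SE, limma adjusted p = 0.0465, and 0.207 without the class term), and passed in 6 of 17. Of the 6 genes with the smallest p for Tgfbr2 deletion, Klrg1, an inhibitory receptor gene of effector T cells (3.92 ± 0.22, limma adjusted p = 0.000203), Mmp9, a secreted gelatinase gene (4.85 ± 0.41, adjusted p = 0.00396), and Ahr, a ligand-activated transcription factor gene (-2.49 ± 0.24, adjusted p = 0.00639), passed in all 17.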

How the data were processed

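The authors deposited 1 table of normalized counts per gene, a signal scaled by size factors, with 10 libraries of 4 genotypes. The tools named per the submitters' processing notes are bcl2fastq 2.18.0, STAR and DESeq2, with mm10 as the build. The counter, annotation, filters and use of strand are not given in the sources used here. SMART-Seq v4 adds no molecular identifiers, so amplified copies count as reads. All values (100%) were whole reads within 0.001 after division by the worth of 1 read, which gave recovered reads per library. Of 17370 rows, 7 had no gene name (0.0029% to 0.0205% of a library) and were left out.

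Each KO replicate is the average of its 2 libraries (their summed reads for edgeR and DESeq2). A gene was kept when 2 or more of the 8 replicates reached 10 normalized counts (14473 genes), and log2(value + 1) was used. The class difference is the mean of 4 within-genotype differences, Col4a1-high minus Col4a1-low, with no test. Genotype contrasts were tested with limma 3.58.1 (trend, 4 residual degrees of freedom, Benjamini-Hochberg threshold 0.05), with Tgfbr2 deletion, Il4 deficiency and class as terms. The class term was chosen from these libraries. Alternatives were another pseudocount (10), TMM factors, no filter, single KO libraries, no class term, a replicate block, each replicate left out, other folds, edgeR 4.0.16 and DESeq2 1.42.0 in R 4.3.3, and removal of the GC trend. Steps were tested on simulated data.

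The members and the 30 gene lists (331 genes, 310 in the table, 275 tested, 1 in 2 lists) were chosen with earlier results of these data known. Named were fixed markers, up to 15 genes on each side that were at least 2-fold different in all 4 pairs with a class mean of at least 50, up to 4 genes per list, the 10 genes most like Col4a1 and, per genotype contrast, up to 6 called genes and the class genes among them. Other list genes named in the text were chosen after their values were seen. Some genes of the lists are not reported here by name. Promoters came from RefSeq (GRCm38.p6), and transcript GC, length and gene positions from GENCODE (mm10). Other scripts used python 3.11.15, numpy 2.4.6, pandas 2.3.3 and matplotlib 3.10.9.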

Additional observations from a re-analysis of the deposited data

Results flagged for a closer look

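Among 258 groups of 4 replicates looked at, 23 held a replicate whose gap to its nearest neighbour, divided by the group's range, exceeded Dixon's critical value for 4 samples. Chance flags about 1 in 20 such groups when values are normal and not tied. Where all but 1 replicate tied, that replicate was flagged whatever its size. Such ties held for Aatk, Gnmt, Gpc6, Nxpe4, Fam171a1, Gas1, Syt13, Sez6, Adamts2 and Pdgfrb. The 23 are therefore not compared with that rate. The Col4a1-low WT replicate stood highest in its class for Col4a2 (99.0 normalized counts), Cd160 (1637), Sez6 (40.9), Syt13 (21.1), Gas1 (18.5), Fam171a1 (6.60) and Gpc6 (3.96), and lowest for Cd4 (13115) and Rplp1 (1403). The Col4a1-low KO replicate stood highest for Aldoa (55407), S100a8 (2027), Ddr1 (899), Gnmt (2.21) and Aatk (0.849). The Col4a1-low IL4-/-KO replicate stood highest for Cd28 (15326) and Adamts2 (71.3) and lowest for Elf5 (17.8), and the Col4a1-low IL4-/- replicate stood highest for Nxpe4 (1.62). In the Col4a1-high class, the IL4-/- replicate stood highest for Pdgfrb (21.3) and lowest for Cd3g (9213). The IL4-/-KO replicate of that class stood highest for Cd200r4 (352), the WT replicate highest for Hbb-bs (648) and the KO replicate lowest for Hspd1 (1907).

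The CD8 T cell and NK cell list differed in direction between genotypes. Its median difference, Col4a1-high minus Col4a1-low, was 0.13 in IL4-/-KO and 0.31 in KO, against -1.12 in IL4-/- and -1.18 in WT, so the means of the 2 sides lay 1.36 apart. That difference was not tested.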

How the results depend on the processing

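The counts of genes past a fold depended on the settings. A pseudocount of 10 left 15 genes at least 2-fold lower in all pairs, a fold of 1.5 gave 925 higher and 220 lower, and a fold of 4 gave 192 and 2. Leaving out a replicate removes its pair, and the fewer pairs gave 2625 to 3005 genes higher and 2755 to 3136 lower in all pairs, 687 to 1100 at least 2-fold higher, 92 to 229 at least 2-fold lower, 1255 to 1861 apart on the higher side and 682 to 1490 on the lower side. The largest count of 2-fold higher genes, 1100, came without the KO pair, and 880 came without the IL4-/-KO pair. Among the class differences of single genes, 1657 values stayed within the spread over pairs and 42 moved by more. Of the 1657, 1048 came from leaving out a replicate. Dropping 1 of 4 pairs cannot move a mean beyond that spread, so these 1048 say nothing about stability. Changes of sign were counted only for genes with one direction in all 4 pairs. There were 2, both when the GC trend was removed, a step chosen after seeing the data: Il2 (0.12) and Eno1 (-0.038). For Tgfbr2 deletion, the 12 calls became 22 with a pseudocount of 10, 39 with the first KO libraries alone, 5 with the repeat KO libraries alone, 7 without the class term, 3 with edgeR and 567 with DESeq2, and 5 to 21 with 1 replicate left out. For Il4 deficiency, the 37 calls became 77, 166, 0, 0, 0 and 778 under those settings, 22 without the filter on low values, and 0 to 726 with 1 replicate left out (188 without IL4-/- replicate 1, 726 without WT replicate 2, and at most 2 without any of the other 6). The IL4-/- and IL4-/-KO libraries were deeper than the WT and first KO libraries, so the Il4 contrast also differed in depth. The part of depth, and the cause, were not tested. Same-numbered replicates deviated together among IL4-/-, IL4-/-KO and KO (correlations 0.19 to 0.24) but oppositely against WT (-0.36 to -0.20), so the numbers do not pair the samples across all 4 genotypes. The class is the replicate number in 3 genotypes and the opposite number in WT. With a replicate block in place of the class term the calls were 3 for Tgfbr2 deletion and 0 for Il4 deficiency. Depth limits genes near 0, where 1 read decides a value, and 8 replicates with 4 residual degrees of freedom limit the tests.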
